A study of Mus musculus with 96 samples.

Results

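The cells described here are R1 cells, a mouse embryonic stem (ES) cell line. They were sequenced 1 per well on a 96-well plate by single-cell tagged reverse transcription, a strand-keeping method that captures transcripts at their 5′ ends and marks every well with its own barcode. The plate held 48 ES cells, 44 fibroblasts from mouse embryos (MEFs) and 4 wells without a cell, called negative control wells, and none of the 96 barcodes was shared. The labels name no treatment, genotype or sex for any group, point to an earlier publication for the ES cell culture, and give DMEM with serum for the MEFs. The source line of the MEF wells is also given as R1, which conflicts with their cell type label, so MEFs serve here as a reference only. ES cells were taken as the wells with at least 10000 reads on gene rows, which kept 45 of 48. The kept well nearest to that minimum held 13576 gene reads, and the nearest of the 3 wells left out held 9327. The series title describes a study of the transcriptional landscape of single cells, and the values below describe that landscape inside the ES cells: how abundance was divided among genes, how many cells showed each gene, how far cells differed and which genes varied together. All 45 cells came from 1 culture and 1 plate, so they are not replicates of a condition. No p-value was computed, and each spread given is a spread between cells in which technical and cellular variation cannot be told apart.

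Mouse ES cells keep a network of transcription factors centred on Oct4 (Pou5f1) and Sox2 active, and they divide quickly with a short G1 phase. They make proteins and ribosomes at a high rate, rely on glycolysis and on threonine breakdown by the enzyme Tdh, and are known for single-cell differences in factors such as Nanog, Zfp42 (Rex1) and Tbx3 in serum culture. They are often grown on a layer of fibroblasts, although the labels do not say whether that was done here.

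Kept ES cells held from 13576 to 703423 gene reads, with a median of 161206, and showed from 963 to 6143 genes with a median of 2094. When every cell was thinned at random to 20000 gene reads, 42 cells remained and the number of genes ran from 900 to 3798, with a median of 1529. Gene reads per spike-in read ran from 0.347 to 13.1 with a median of 6.62. ES cells 2, 7, 8 and 30 stood apart with fewer than 0.4 gene reads per spike-in read, whereas every other kept cell had at least 2.79 and the negative control wells at most 0.196. By the correlation of log2(CPM + 10) with the mean profile of each type (CPM, gene reads scaled to a total of 1000000), ES cells 4, 7, 8 and 30 lay nearer the MEF mean than the ES mean, most clearly ES cell 4 (0.559 with ES cells, 0.727 with MEFs). Results that turn on these 5 cells are given with and without them. Transcripts of 30 fibroblast marker genes made up from 0.0676% to 6.25% of gene reads in ES cells, with a median of 0.232%, against a median of 6.53% in MEFs and 4.87% in the negative control wells. In reads, these were 86 to 4495 per ES cell (median 390) and 8 to 279 per negative control well (median 184.5).

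Each of the 5 ES cell markers had a read in most kept wells, so the label and the markers did not conflict in most of the cells. A read need not come from the cell in the well, since each of the 4 negative control wells held reads of Dppa5a (43 in all). Together the 5 markers held 0.447% of the pooled gene reads of those wells, against a median of 0.627% in ES cells. All 5 markers had a read in 28 of 45 cells, 4 of 5 in 11 cells, 3 in 3 cells, 2 in 2 cells and 1 in 1 cell. At 20000 reads, 25 of 42 ES cells had all 5, while 28 of 44 MEFs had none, 11 had 1, 5 had 2 and none had more. Of the cells that stood apart, ES cell 4 had all 5 markers, ES cell 7 had 4, ES cell 2 had 3 and ES cell 30 had 2. ES cell 8, with 13576 gene reads, had only Dppa5a, at 221 CPM. Lists of markers of other lineages gave mixed counts. Over all 21711 gene rows, 11900 had a read, and 48.4% of those reached 10 CPM. Of 9 neural genes with a row 4 had a read, and Stmn2, a regulator of microtubules in neurons, had 371 CPM in 36 of 45 cells, above the 317 CPM of Zfp42. At 20000 reads Stmn2 was present in 33 ES cells of 42, against 6 MEFs of 44. Of 17 primitive endoderm genes with a row 10 had a read, led by 2 matrix genes that fibroblasts also express, Sparc (268 CPM in 43 cells, 3729 CPM in MEFs) and Col4a1 (50.5 CPM in 32 cells, 849 CPM in MEFs). Of 22 genes listed for the primed epiblast and germ layers 8 had a read and 5 reached 10 CPM, namely Lefty2, Lefty1, Otx2, Dnmt3b and Nes. T, Fgf5, Eomes, Sox17, Foxa2, Gata4, Pax6 and Sox1 had no read, which allows a level of up to 0.344 CPM (3 reads over all cells, counting error only). Of 11 trophoblast genes with a row 5 had a read and none reached 10 CPM, of 10 macrophage and blood genes only Ptprc had reads (0.229 CPM), and of 8 endothelial genes 5 had a read, with Egfl7 highest at 37.4 CPM. Of 16 genes of the 2-cell-like state, 13 had a row and only Eif1a, a translation initiation factor, had reads.

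Reads were concentrated on few genes. Of 21711 gene rows 11900 had a read, with 8720507 reads in all, and 42 genes held 50% of them. The most abundant gene took 18.1% of the reads, the top 10 took 34.1%, the top 100 took 62.8% and the top 1000 took 83.4%. Levels of at least 1000 CPM were reached by 109 genes, at least 100 CPM by 902 (7.58% of those read) and at least 10 CPM by 5755 (48.4%). Since the reads come from 5′ ends, CPM is not divided by transcript length, and Spearman's rho between length and CPM was −0.14 across 5388 genes with at least 100 reads. Per kilobase of transcript, 24 genes in place of 42 held 50% of the total, so ranks are given on both scales.

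**Figure D1:**
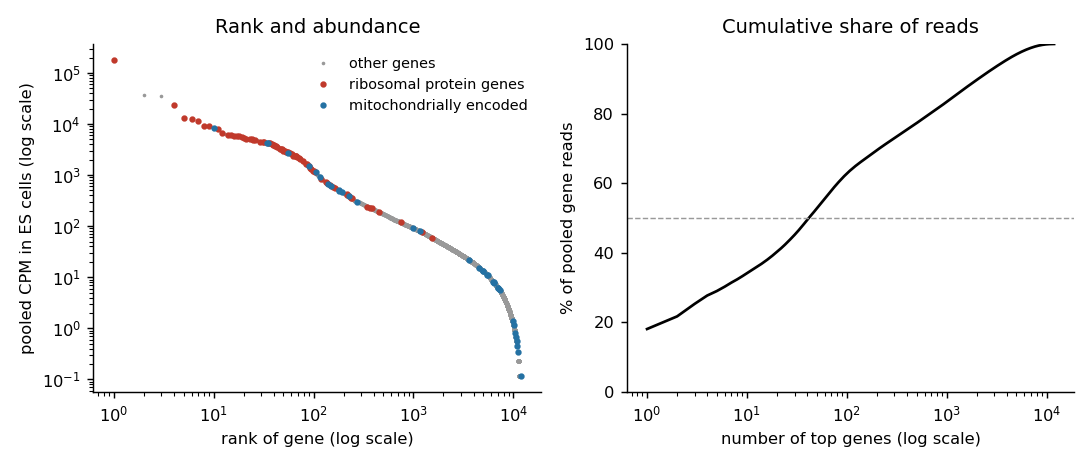
Left, pooled CPM of each gene with a read in the 45 ES cells against its rank, both on log scales, with ribosomal protein genes in red and mitochondrially encoded genes in blue. Right, the share of pooled gene reads held by the top genes, on a log scale of gene number, with a dashed line at 50% that the curve crosses at 42 genes.

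Ribosomal protein genes, which encode the structural proteins of both ribosomal subunits, held 45.4% of all reads in ES cells and made up 57 of the 100 most abundant genes. All 77 had a read, 75 reached 100 CPM (7.58% of all genes with a read did), and their median level was 2874 CPM. Their share in single cells ran from 11.8% (ES cell 4) to 57.5%, with a median of 46.1%. Rpl4, a protein of the large subunit, stood first on both scales with 181245 CPM (exact 95% Poisson interval 180963 to 181528, counting error only). It alone held 39.9% of the ribosomal protein reads and ran from 6957 to 313857 CPM between cells, with a median of 187036, against 12516 CPM in the pooled MEFs. Other leading ribosomal protein genes were Rpl23 (12996 CPM), Rpl41 (12618), Rpl19 (11667), Rps28 (9331) and Rpl10a (9023), at ranks 5, 6, 7, 8 and 9 by CPM and 11, 6, 10, 5 and 14 per kilobase. The ferritin light chain rows Ftl1 and Ftl2 held ranks 2 and 3 at 36300 and 36043 CPM, but only 10.6% and 1.54% of their reads were unique, so the same reads may have been counted at both. In all, 10 of the 100 most abundant genes had less than 50% unique reads.

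Transcripts of ribosomal protein genes and of some translation factors are known to begin at a C within a run of pyrimidines, the 5′ terminal oligopyrimidine tract, through which their translation is controlled as a group. The windows below show 60 bases of the promoters of selected genes, 50 before and 10 after the RefSeq start, 5′ to 3′ on the transcribed strand (RefSeq, GRCm38.p6). Rps2 is the least abundant of them, at rank 224 with 388 CPM. They were chosen to set genes with and without such a run side by side, and capitals mark the run of 8 or more bases that are all C or T and overlap the 10 bases on either side of the start.
Rpl4 (chr9:64173337-64173396, plus strand): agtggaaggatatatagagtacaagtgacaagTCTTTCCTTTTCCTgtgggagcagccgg
Fau (chr19:6057897-6057956, plus strand): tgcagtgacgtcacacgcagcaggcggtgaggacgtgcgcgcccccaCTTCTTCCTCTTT
Eef1a1 (chr9:78481715-78481774, minus strand): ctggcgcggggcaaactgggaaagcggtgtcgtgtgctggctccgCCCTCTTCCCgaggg
Rpl19 (chr11:98026660-98026719, plus strand): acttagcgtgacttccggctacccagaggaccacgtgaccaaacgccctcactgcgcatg
Rps2 (chr17:24720013-24720072, plus strand): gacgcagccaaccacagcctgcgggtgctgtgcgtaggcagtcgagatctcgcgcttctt
The run was 14 bases long in Rpl4, 16 in Fau (of which 13 lie in the window) and 10 in Eef1a1, and the longest run at the starts of Rpl19 and Rps2 was 5 and 6. Of the other leading ribosomal protein genes, Rpl23, Rpl41, Rps28 and Rpl10a are not shown, and their longest runs were 3, 3, 4 and 7. Of the 77 ribosomal protein genes 56 had a promoter in the table, and 25 of the 56 (44.6%) held a run of at least 8, against 3643 of all 27025 promoters (13.5%). Because less than 80% of the list was matched, these counts describe the 56 matched genes and not the list, and RefSeq starts need not be the starts used in these cells.

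Outside the ribosomal protein and mitochondrially encoded genes, an elongation factor, a noncoding RNA and an ES cell marker were among the highest. Eef1a1, which carries aminoacyl-tRNA to the ribosome, had 6354 CPM (rank 13, 56 per kilobase), and from 2145 to 9818 CPM in single cells with a median of 5946. Malat1, a nuclear noncoding RNA, had 5158 CPM (rank 22, 130 per kilobase), and Dppa5a, an RNA-binding protein of undifferentiated cells, 4816 CPM (rank 27, 24 per kilobase). Next in level came, among others, Eef1b2 (4520 CPM), the chaperone Hsp90ab1 (3299), the ubiquitin-like and ribosomal fusion gene Fau (3291), the nucleolar protein Npm1 (2921), the peroxidase Gpx4 (2697), Btf3 (2610), Cox6c of cytochrome c oxidase (2232) and the actin Actg1 (2196). All 26 listed translation factors had at least 100 CPM, against 7.58% of all genes with a read. Their median was 814 CPM, and together they held 3.62% of reads. Mitochondrially encoded genes held 2.71%, from 0.541% to 7.26% in single cells, led by the oxidase subunits mt-Co1 (8452 CPM) and mt-Co2 (4319 CPM).

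The markers took lower ranks. Tdh had 1070.5 CPM (rank 107, 154 per kilobase), Pou5f1 731 CPM (interval 713 to 749, rank 131, 157 per kilobase), Sox2 386 CPM (373 to 399, rank 226, 377 per kilobase) and Zfp42 317 CPM (305.5 to 329, rank 258, 340 per kilobase). Among all genes with a read, 48.4% reached 10 CPM and 7.58% reached 100 CPM. Of 25 listed pluripotency factors 24 had a row, 22 had a read and 20 reached 10 CPM, with a median level of 54.1 CPM. Behind Pou5f1, Tcfcp2l1 (481 CPM) and Sox2 came Klf5 (184), the telomere-associated Rif1 (136), Klf2 (99.1), Klf4 (95.9), Esrrb (92.1) and the chromatin-bound Utf1 (85.8). Among 25 markers of the undifferentiated state 23 had a read and 12 reached 100 CPM, among them the microRNA-processing regulator Lin28a (289 CPM), the Nodal coreceptor Tdgf1 (237), the adhesion molecules Cdh1 (145) and Epcam (128) and the chromatin protein Dppa4 (120).

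The starts of 3 of the 5 marker genes are shown because these genes name the cells. Dppa5a and Tdh were not matched in the promoter table. The same 60-base windows read as follows, with no capitals since none holds a run of 8 (RefSeq, GRCm38.p6).
Pou5f1 (chr17:35505982-35506041, plus strand): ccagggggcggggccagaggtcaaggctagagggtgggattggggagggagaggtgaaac
Sox2 (chr3:34649945-34650004, plus strand): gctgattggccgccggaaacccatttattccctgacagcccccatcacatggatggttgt
Zfp42 (chr8:43307000-43307059, minus strand): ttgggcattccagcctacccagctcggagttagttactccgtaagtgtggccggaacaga
Each of the 3 held GGGCGG or its complement CCGCCC in the 250 bases before the start, a motif in 32.96% of all promoters and in 61.4% of those of genes with a read in ES cells, and each held CCAAT or ATTGG in the 150 bases before the start, a motif in 25.3% and 29.1%. A match is a description of the letters only.

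Few genes were seen in every cell. A read was present in all 45 cells for 113 genes (0.95% of the genes with a read), of which 64 were ribosomal protein genes and 3 mitochondrially encoded. At least 23 cells showed 1203 genes (10.1%), and 1746 genes appeared in 1 cell only. At 20000 reads, 105 genes were present in all 42 cells. Leaving out ES cells 2, 4, 7, 8 and 30 gave 136 genes in all of the remaining 40.

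Detection was set against the number of cells that the pooled level alone would give. Had each gene been at one level in all cells, a gene of at least 100 CPM would have been read in a median of 44.8 cells at these depths. That number covers counting error only and takes reads as independent, which amplified reads without molecular identifiers are not. The 902 such genes were read in a median of 33 cells, 197 of them in fewer than 23, and for 107 of them a single cell held more than 50% of the summed per-cell CPM. The plot of detection against abundance shows most genes below the line for equal levels, with the ribosomal protein genes near it.

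**Figure D2:**
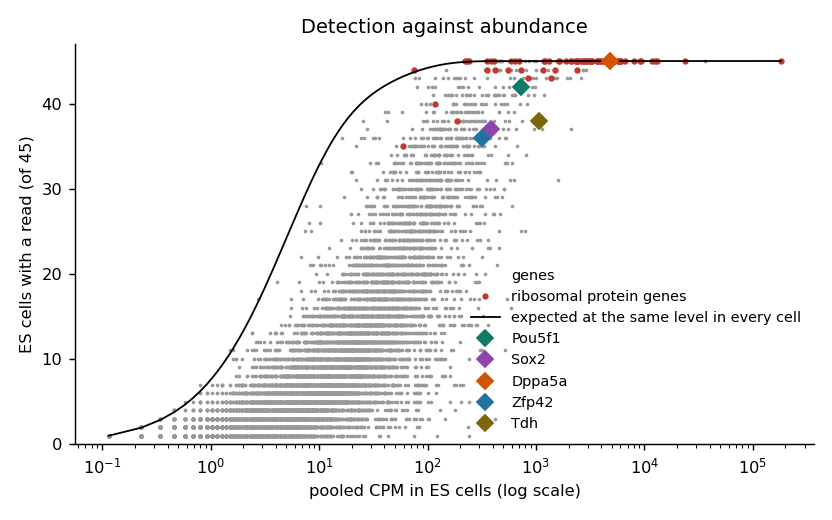
Number of the 45 ES cells with a read against pooled CPM (log scale) for each gene, with ribosomal protein genes in red, the 5 markers as diamonds and, as a line, the number expected if every cell held the gene at its pooled level. Dppa5a lies on the line at 45 cells, and Pou5f1 (42), Tdh (38), Sox2 (37) and Zfp42 (36) lie below it.

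Detection of the markers followed that order. Pou5f1 had a read in 42 of 45 cells (93.3%, exact binomial interval 81.7% to 98.6%), and ES cells 8, 9 and 30 had none. Sox2 was read in 37 cells (67.9% to 92.0%) and Zfp42 in 36 (65.4% to 90.4%), which lie within each other's intervals. At 20000 reads, Pou5f1 was present in 41 of 42 ES cells and 1 of 44 MEFs, Sox2 in 33 and 5, Zfp42 in 33 and 0, Tdh in 38 and 4, and Dppa5a in 42 and 11. The full median depths were 161206 gene reads for ES cells and 851801 for MEFs, and the negative control wells held 43 reads of Dppa5a, 7 of Zfp42, 4 of Tdh, 2 of Sox2 and none of Pou5f1. Of the 24 pluripotency factors with a row 8 were read in at least 23 cells, against 10.1% of all genes with a read. Nanog, a factor of the same network, had 41.7 CPM but was read in only 6 of 45 cells and at 20000 reads in 6 of 42. The orphan receptor Nr0b1 (12.5 CPM) was read in 2 cells, Lin28a in 19, Klf5 in 18, Epcam in 14 and Otx2, a factor of the primed epiblast, in 8 at 64.3 CPM. Of 36 nuclear genes of the respiratory chain 29 were read in at least 23 cells, against the same 10.1%. Cox6c, Cox8a, Cox7c, Cox4i1 and Atp5g2 were read in all 45, as were 0.95% of all genes with a read.

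Cell-to-cell spread was measured as the squared coefficient of variation (CV², the variance of CPM over cells divided by the squared mean) and set against a running median over genes of like mean level. Of 3765 genes with at least 100 reads in at least 10 cells, 554 (14.7%) lay at least 2-fold above that trend and 364 (9.67%) at least 2-fold below it. The trend itself fell from 6.83 at about 10 CPM to 3.96 at about 100 CPM, 0.662 at about 1000 CPM and 0.216 at about 3000 CPM. Spike-in RNAs 1, 2 and 3, the most abundant, had a CV² of 0.0325, 0.0260 and 0.0609 for their share of spike-in reads. Spike-in RNA 4 had 0.223 and spike-in RNA 5 had 1.197. The first 3 held on average 24.8%, 32.1% and 31.7% of spike-in reads, which limits how far their shares can vary. Their CV² is therefore not on the scale of that of genes and does not measure technical spread in gene CPM. Spike-in RNA 5 fell below 1% of spike-in reads in 15 cells and reached 44.7% in another.

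**Figure D3:**
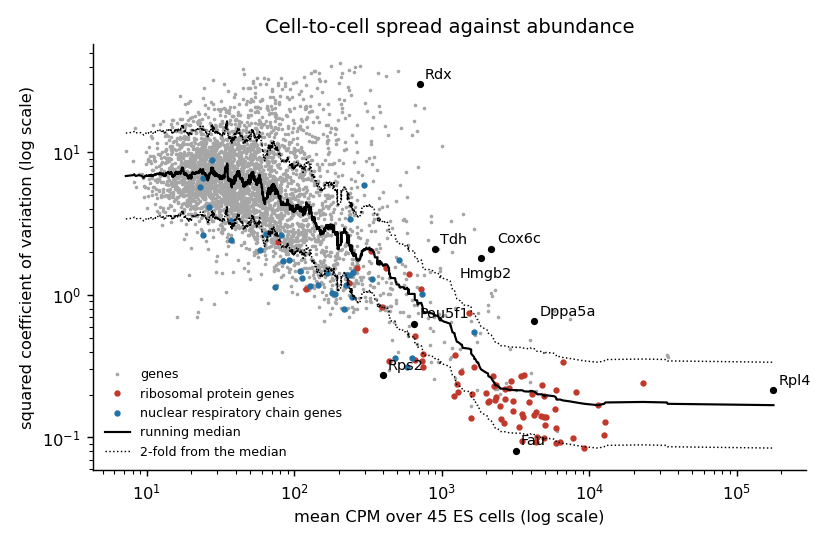
CV² over the 45 ES cells against mean CPM, both on log scales, for 3765 genes, with ribosomal protein genes in red, nuclear respiratory chain genes in blue, the running median as a solid line and 2-fold limits as dotted lines. Rdx lies far above the line and Hmgb2, Cox6c, Tdh and Dppa5a above the upper limit, while Fau and Rps2 lie below the lower one.

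Some housekeeping groups were narrow in spread and others were not. Over all 3765 genes, 9.67% lay at least 2-fold below the trend and 14.7% at least 2-fold above. Of 36 nuclear genes of the respiratory chain, which feed the mitochondrial electron transport and ATP synthase complexes, 19 lay at least 2-fold below the trend and 2 at least 2-fold above, with a median of 0.467 times the trend against 1 over all genes. Cox4i1 was at 0.27 times, Atp5e at 0.28, Atp5j at 0.29 and Atp5d at 0.22. The exceptions were Cox6c at 8.03 times and the succinate dehydrogenase subunit Sdhb at 2.85 times. Of 24 chaperone genes 8 lay below and none above, with a median of 0.644. Ppia, which isomerises prolines in folding proteins, had 37.8 to 1283 CPM in single cells with a median of 440 (0.34 times). Of 31 proteasome genes 7 lay below and none above, with a median of 0.699, and of 77 ribosomal protein genes 15 lay below and none above, with a median of 0.708. Since 57 of the 100 most abundant genes encode ribosomal proteins, the trend at high levels rests in large part on these genes themselves. Of 17 measured mitochondrially encoded genes 3 lay above the trend and none below, with a median of 1.34. Of 18 measured cytoskeleton genes 4 lay above and 1 below, with a median of 1.07.

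Single genes at the narrow end were Gm4987 (0.09 times the trend, 60.3% unique reads), Rps2 (0.17), the exosome subunit Exosc2 (0.21), Rps27l (0.21), the centromere protein Cenpw (0.22), the splicing proteins Snrpd2 (0.23) and Snrpb (0.24), Pdap1 (0.24) and Nedd8 (0.24). Rps2 ran from 67.95 to 909 CPM with a median of 345, and its quartiles were 261 and 539 CPM. Fau ran from 1488 to 4844 CPM with a median of 3082 (0.38 times), so that its highest cell stood 1.57-fold above its median cell. With spike-in reads as the total, Fau was at 0.761 times.

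At the wide end, one cell often held most of a gene's summed per-cell CPM. The median share of summed CPM in the highest cell was 54.8% for the 554 genes above the trend, 12.1% for the 364 below and 26.4% for all 3765. Among the widest genes of at least 50 CPM were the membrane-cytoskeleton linker Rdx (34.3 times the trend), the RNA-binding Hnrnpd (27.02), the translocon gene Sec61a2 (23.2), the FGF receptor substrate Frs3 (22.7), Mtss1 (21.1), the replication factor Atad5 (20.96), the mitotic kinase Melk (20.8), Heatr7a (18.8) and Tmem64 (18.6). Rdx had no read in 28 cells, 4038 CPM in its second highest cell and 25855 CPM in ES cell 13. Sec61a2 had no read in 29 cells and reached 17229 CPM in ES cell 12 and 11361 CPM in the next. Melk had no read in 34 cells and 16289 CPM in ES cell 39, with 1175 CPM in the next. The highest cell of these genes differed from gene to gene, and each of the 45 cells was the highest for at least 1 of the 554 genes (median 11). ES cell 17 was so for 51 genes and ES cells 8, 2, 6 and 7 for 24, 23, 23 and 19. Across cells, that number had a Spearman's rho of −0.67 with gene reads and −0.56 with gene reads per spike-in read (45 cells of 1 plate), so cells with few reads held the extreme values more often; the part of depth in these genes' spread was not tested. When the highest cell of each gene was left out, 329 genes lay above the trend and 178 below.

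Other abundant genes were wide in spread while read in most cells. Hmgb2, a chromatin protein of dividing cells, had 0 to 7837 CPM with a median of 292. It had at least 1000 CPM in 18 cells, less than 500 CPM in 25 and a value in between in only 2, and the quartiles, 37.2 and 3159 CPM, lay 84.9-fold apart. Hmgb2 was at 5.98 times the trend, and at 7.19 times without ES cells 2, 4, 7, 8 and 30. Its relative Hmgb1 (0 to 2198 CPM, median 169) was at 1.22 times and the histone variant H2afz (0 to 3667 CPM, median 969) at 1.07. Cox6c ran from 27.1 to 18412 CPM with a median of 1059, and was at 4.42 times the trend without each gene's highest cell and at 2.62 times in plate rows A to D alone. Apoe, the lipid carrier, ran from 0 to 4995 CPM with a median of 552 (2.23 times), and Gapdh, of glycolysis, from 0 to 5765 CPM with a median of 1171 (2.23 times). The elongation factor genes Eef2 and Eef1g were at 4.46 and 3.83 times, whereas Eef1a1 was at 0.60. Single cells weighed on both, as the CV² of Eef2 was 1.08 with and 0.602 without its highest cell, ES cell 6, and that of Eef1g 0.986 with and 0.638 without ES cell 48. Of the 26 translation factors, 6 lay above and 8 below, against 14.7% and 9.67% over all genes.

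Pluripotency genes differed among themselves in spread relative to the trend. Of 17 measured pluripotency factors 3 lay above the trend (Tcfcp2l1 at 6.58 times, Klf5 at 3.66, Rif1 at 2.30) and 1, Utf1, below (0.45), with a median of 1.51 that was 0.978 in plate rows A to D alone. Over all genes 14.7% lay above, so the count of 3 is near that share. Of 19 measured markers of the undifferentiated state 5 lay above and 2 below. Those above were Alpl (5.38), Lin28a (5.01), Dppa5a (3.12), Tdh (2.91) and Dppa4 (2.67), and those below L1td1 (0.38) and Tdgf1 (0.49). Alpl had 66.8% of its summed CPM in a single cell and Lin28a 53.01%, while Dppa5a had 7.26% and Tdh 14.1%. Dppa5a ran from 180 to 13868 CPM with a median of 3625 and quartiles of 1264 and 6011. Tdh ran from 0 to 5651 CPM with a median of 416, with 14 cells at 1000 CPM or more and 7 at 0. Pou5f1 ran from 0 to 2169 CPM with a median of 608 and quartiles of 257 and 940 (0.62 times the trend), Sox2 from 0 to 3126 with a median of 158 (1.52 times, 0.484 in plate rows E to H alone) and Zfp42 from 0 to 1456 with a median of 194 (0.56 times, 0.898 without each gene's highest cell). The plot of single genes by cell sets these ranges beside those of Fau and Ppia.

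**Figure D4:**
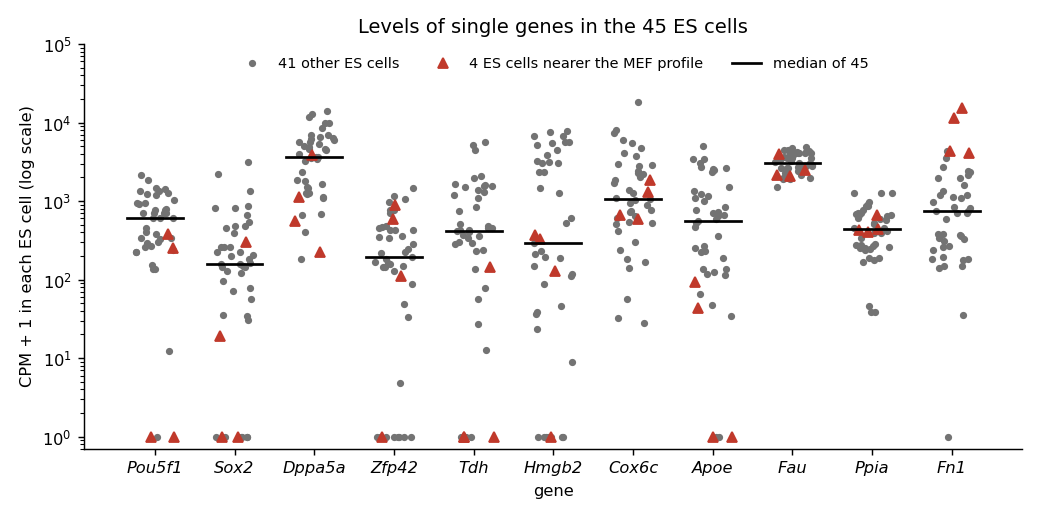
CPM + 1 on a log scale of 11 genes in each of the 45 ES cells, with a bar at the median and triangles for the 4 cells nearer the MEF profile, points at 1 being cells without a read. Fau stays within 1488 to 4844 CPM, and Hmgb2 has only 2 cells between 500 and 1000 CPM. The triangles are low for Pou5f1 and Tdh and high for Fn1, and lie on both sides of the median for Sox2, Dppa5a and Zfp42.

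Covariation was described by Spearman's rho of CPM over the 45 cells for the 656 genes with at least 50 CPM and a read in at least 30 cells. The points share 1 plate, 1 library and a wide range of depth, and CPM ties genes together through the total. Of 214840 gene pairs 2198 (1.02%) had a rho of at least 0.5 and 300 a rho of at most −0.5, with a median of 0.06. With spike-in reads as the total in place of gene reads, 17024 pairs (7.92%) reached 0.5. By CPM, 11 of the 656 genes had a rho of at least 0.5 with the number of gene reads, and in partial correlation on that number 2097 pairs reached 0.5. The part of depth and of RNA content per cell in these pairs was not tested. With the genes chosen anew in each set of rows, 3.11% of the pairs among 691 genes reached 0.5 in the upper plate rows alone (A to D, 23 cells) and 3.20% of those among 600 genes in the lower rows alone (E to H, 22 cells).

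The highest values belonged to fibroblast genes. Of the 66 pairs among 12 measured fibroblast markers 58 had a rho of at least 0.5, with a median of 0.63. The 10 highest pairs of all were made of matrix and cytoskeletal genes that had higher CPM in MEFs, led by the matrix glycoprotein Thbs1 with the tropomyosin Tpm1 (0.90) and including Sparc with Tpm1 (0.84), Serpine2 with Col1a1 (0.84), Ahnak with Fat1 (0.83) and S100a11 with S100a6 (0.81). Thbs1 ran from 57.6 to 14058 CPM in ES cells with a median of 342, and Fn1, fibronectin, from 0 to 15130 CPM with a median of 755, both highest in ES cell 4. Without the 4 cells nearer the MEF profile, Thbs1 and Tpm1 had a rho of 0.87. Without ES cells 2, 4, 7, 8 and 30 the median over the fibroblast pairs was 0.55, and the share of all pairs at 0.5 or more was 0.686%. The fibroblast share of reads had a rho of −0.43 with gene reads per spike-in read, and it was 4.87% in wells without a cell. The part of RNA carried between wells was not tested. The spread of these genes rested on the same cells. Of 22 fibroblast markers 8 lay above the trend, against 14.7% over all genes. Their median of 1.24 times was 0.773 without the 4 cells nearer the MEF profile and 0.630 without all 5.

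Among the 318 genes with at least the CPM of MEFs, 504 of 50403 pairs (1.00%) had a rho of at least 0.5. This split was chosen after the values were seen. Mitochondrially encoded genes stood first: mt-Co1 with mt-Atp6 had 0.74, mt-Co2 with mt-Nd4 0.71 and mt-Atp8 with mt-Nd4 0.70, and 19 of 78 pairs of this group reached 0.5 with a median of 0.40. mt-Co1 itself ran from 147 to 34517 CPM with a median of 6437. Pairs of nuclear genes of the respiratory chain had a median of 0.16, with 5 of 325 at 0.5 or more. No pair of the 300 among translation factors reached 0.5 (median 0.07). Ribosomal protein genes had a median of 0.17, with 100 of 2926 pairs (3.42%) at 0.5 or more, led by Rpl23 with Rps10 (0.71) and Rpl27 with Rpl36 (0.68).

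A set of small abundant genes varied with Hmgb2. These genes were named after their values were seen. Hmgb2 had a rho of 0.66 with Rbx1, a subunit of cullin ubiquitin ligases, 0.66 with the thioredoxin Txn1, 0.65 with the cytokine Mif, 0.58 with H2afz, 0.53 with Cox6c and 0.51 with Hmgb1. Txn1 and Mif had 0.68 with each other, 0.71 without the 4 cells nearer the MEF profile, and 0.83 in the upper rows (A to D) and 0.56 in the lower rows (E to H) of the plate. With Top2a and Cks1b, genes of G2 and mitosis, Hmgb2 had 0.12 and 0.23, the latter 0.05 in the upper and 0.43 in the lower rows. The summed HMG and histone variant genes had 0.31 with the summed S phase genes (0.08 and 0.46 in the upper and lower rows). With the summed G2 and M phase genes they had 0.29. The part of the cell cycle in this set was not tested. Txn1 also had 0.52 with gene reads per spike-in read and Mif 0.45, against 0.38 for Hmgb2, and the part of RNA content per well in this set was not tested.

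Each marker was set beside a few other genes. Dppa5a went with Apoe (0.61), Mif (0.59), Txn1 (0.52), H2afz (0.52) and Hmgb2 (0.48). It went against Thbs1 (−0.48) and Fn1 (−0.45), which were −0.39 and −0.36 without the 4 cells nearer the MEF profile. Pou5f1 went with Hmgb1 (0.64, and 0.73 and 0.52 in the upper and lower plate rows, 0.463 as Pearson's r of log2(CPM + 10)), as did Zfp42 (0.59, with 0.75 and 0.41). Tdh went with Gapdh (0.63), which was 0.57 without the 4 cells nearer the MEF profile. Between the markers themselves rho was low over the 45 cells: none of the 10 pairs reached 0.5 and their median was 0.25. Pou5f1 had 0.39 with Sox2, 0.36 with Dppa5a, 0.34 with Zfp42 and 0.24 with Tdh, and Sox2 had −0.01 with Dppa5a. These values differed between plate rows. In the upper and lower rows, Pou5f1 had 0.30 and 0.53 with Sox2 and 0.02 and 0.505 with Tdh. Dppa5a with Zfp42 went the other way, with 0.40 and −0.04. Without the 4 cells nearer the MEF profile, Pou5f1 had 0.30 with Sox2 and 0.11 with Tdh.

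Sums over gene lists showed the same outline. The undifferentiated-state markers varied with the HMG and histone variant genes (rho 0.70, and 0.66 and 0.77 in the upper and lower plate rows) and with the respiratory chain (0.62), and the HMG and respiratory chain sums with each other (0.67). Single genes weigh heavily in these sums, as Dppa5a held 59.1% of the reads of its list, Hmgb2 34.3% and Cox6c 19.9%. The pluripotency factors, of which Pou5f1 held 24.4%, had 0.15 with the respiratory chain and 0.45 with chromatin regulators. The ribosomal protein sum had −0.51 with the cytoskeleton, −0.49 with splicing factors and −0.46 with fibroblast markers. Since it holds 45.4% of the total, CPM of other genes falls when it is high by arithmetic alone. The fibroblast sum had −0.45 with the undifferentiated-state markers, and −0.31 without the 4 cells nearer the MEF profile.

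**Figure D5:**
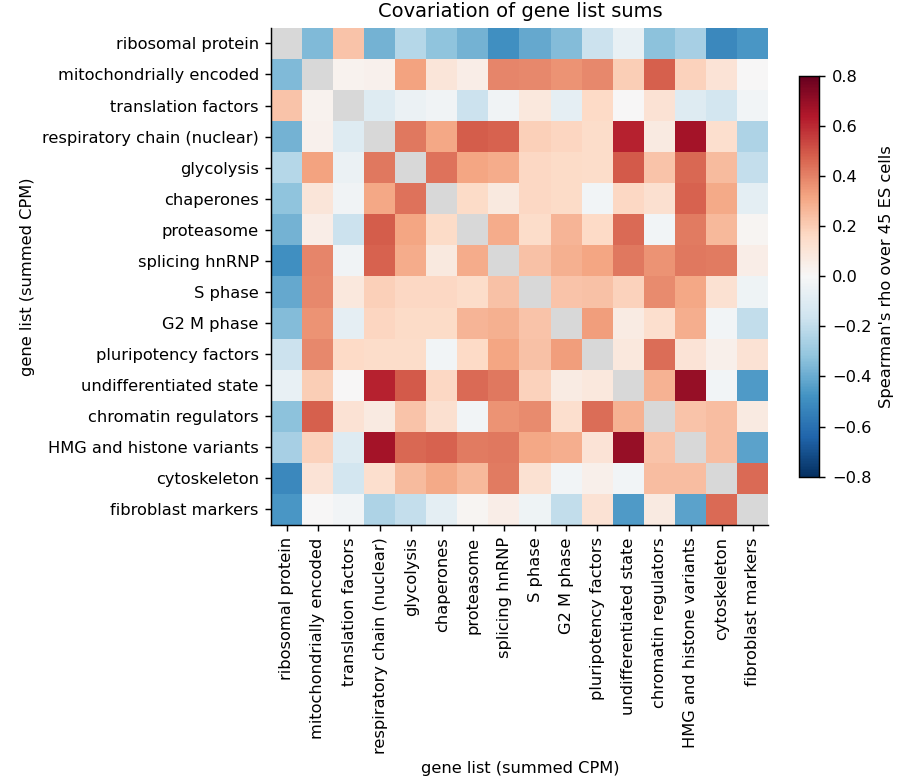
Spearman's rho over the 45 ES cells between summed CPM of 16 gene lists, from blue (negative) through white to red (positive), with grey on the diagonal. The block of the respiratory chain, undifferentiated-state and HMG lists is deep red (0.62 to 0.70), and the ribosomal protein row is blue but for translation factors.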

How the data were processed

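Values are the raw read counts per gene, spike-in and repeat row that the authors deposited for each of 96 wells, in 1 table. Per the file headers these per-well counts are maximum exon hits, which include reads with other mappings. A further deposited column holds counts of uniquely mapped reads over the plate. Bowtie was used, per the submitters' processing notes. Its version, the genome build and the annotation are not given in the sources used here, and no molecular identifiers are mentioned, so intervals cover counting error only. Wells were grouped by the labelled cell type, and 0 columns of per-well values were left unmapped. No doublet caller was run, since each well is labelled as 1 cell.

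Totals over gene rows gave CPM. Pooled CPM carries an exact Poisson interval and shares an exact binomial (Clopper-Pearson) interval at the 95% level. Thinning drew 20000 gene reads per cell without replacement. CV² was divided by a running median over 101 genes ordered by mean CPM. Spearman's rho used CPM. The spread and correlation steps were tested on simulated data with known changes. Python 3.11.15, NumPy 2.4.6, pandas 2.3.3 and SciPy 1.17.1 were used. Promoter windows come from RefSeq (GRCm38.p6), with the most upstream start of each symbol.

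Of genes with at least 50% unique reads, the text names the 5 markers, the 8 most abundant and the 12 most abundant outside ribosomal protein and mitochondrially encoded genes, the 10 widest and 10 narrowest at 50 CPM or more, the 10 highest pairs outside ribosomal protein pairs, and from each of 30 lists the 2 most abundant, the widest and the narrowest. Some genes that this rule names are not reported here. Any further gene was picked with its values in view. The cells, lists and rules were chosen with earlier results of these data known. Alternatives changed the read minimum, cells, plate rows, scaling, thinning and gene filters. No test was made, because each well is 1 cell of 1 culture.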

Additional observations from a re-analysis of the deposited data

Results flagged for a closer look

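Reads on repeat elements lay outside the gene measurements above and were well above the level of wells without a cell. The median ES cell held 46684 repeat reads, against a median of 7083 in the 4 negative control wells (228 to 9073). Of 1217 repeat rows 811 had a read in ES cells, and the short interspersed element B2_Mm1a held 25.7% of the repeat reads. Per 100 gene reads, ES cells had a median of 30.5 repeat reads, MEFs 12.5 and negative control wells 175, so on that scale the ES cells lay below the empty wells.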

How the results depend on the processing

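A share of 50% of the reads was held by 24 genes per kilobase in place of 42, and by 41 to 47 genes under the other settings. Genes read in every cell numbered 59 over all 48 wells and 74 with at least 5 reads, in place of 113. Genes at least 2-fold above the spread trend, 554, numbered 369 in plate rows E to H, 180 of 727 when thinned, 329 without each gene's highest well and 333 of 1485 with at least 500 reads. Those below, 364, were 94, 178 and 203 under the last 3 of these settings. Gene pairs with a rho of at least 0.5, 2198, numbered 1464 without the cells nearer the MEF profile, 7406 in the upper plate rows, 5748 in the lower, 416 among 366 genes when thinned, 504 among 240 genes read in at least 40 wells, 504 among the 318 genes with the higher CPM in ES cells and 17024 (7.92%) with spike-in reads as the total. Upper or lower rows alone hold fewer cells and thinned or stricter sets fewer genes. The cause of these changes was not tested for any setting. With ES cell 17 left out, 543 genes lay above the trend, and with ES cell 4 left out, 1560 pairs reached 0.5. The settings that leave out cells that stood apart, single cells or genes of lower CPM were added after seeing the data, apart from the cells nearer the MEF profile. Of 446 recomputed values of single genes and lists, 428 stayed within a margin set for each kind of value and 18 moved beyond it. No rho changed sign. The other values are never negative and could not, and a crossing of the spread trend was not counted as such a change. For the main counts of abundance, detection, spread and covariation, 55 recomputed values stayed within the margin and 17 moved. No paired analysis was possible because the wells of different groups share no replicate number. Depth limits detection: 3 cells had fewer than 20000 reads.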

Other observations

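Cell cycle genes were read in some cells and not in others. Of 31 S phase genes all had a read and 27 reached 10 CPM, but 1 was read in at least 23 ES cells, Mcm7 of the replicative helicase, in 27 cells at 124 CPM. Over all genes with a read, 10.1% were read in at least 23 cells. Uhrf1, which guides maintenance DNA methylation, had the highest level at 213 CPM and was read in 21 cells. Of 37 G2 and M phase genes 36 had a row, all of these with a read, and 7 were read in at least 23 cells. The highest were the topoisomerase Top2a (282 CPM, 38 cells) and the kinase cofactor Cks1b (244 CPM, 36 cells), while the cyclin Ccnb1 had 180 CPM in 24 cells. Relative to the spread trend, the S phase genes had a median of 1.00 and the G2 and M phase genes of 0.90, against 1 over all genes.

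Over all genes with a read, 48.4% reached 10 CPM and 7.58% reached 100 CPM. Of 25 genes of LIF, BMP, Nodal and FGF signalling 17 reached 10 CPM and 4 reached 100 CPM, namely the Nodal coreceptor Tdgf1 (237 CPM, 35 cells), the FGF target Etv5 (146 CPM, 27 cells) and the Nodal inhibitors Lefty2 (108 CPM, 20 cells) and Lefty1 (105 CPM, 13 cells). Lefty1 ran to 1205 CPM and held 40.6% of its summed CPM in 1 cell, against 18.3% for Lefty2. Among the interferon-induced membrane proteins, Ifitm1 had 651 CPM in 37 cells and Ifitm3 104 CPM in 30. Of 24 imprinted genes 21 had a read and 3 reached 100 CPM, and Snrpn, the highest at 190 CPM, had only 3.94% unique reads, so its level is uncertain, and held 62.5% of its summed CPM in 1 cell, while the noncoding RNA Rian had 147 CPM in 28 cells. Of 16 immediate early genes 9 reached 10 CPM and none reached 100 CPM.

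Of 24 measured chromatin regulators 4 lay at least 2-fold above the spread trend and 2 below, against 14.7% and 9.67% over all genes. Their median was 0.998 times the trend. Among them, the methylcytosine oxidase Tet1 (532 CPM, 33 cells) and the remodeller Chd4 (287 CPM, 24 cells) lay at 4.32 and 7.24 times the trend, while the heterochromatin protein Cbx3 lay at 0.37 times (132 CPM, 35 cells).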
